A study of Mus musculus with 6 samples.

Results

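Ptprd, Ptprf, Ptprs, Ptprz1, Adgrl1, Adgrl2 and Adgrl3 encode cell-surface receptors that join neurons, or neurons and glia, to their neighbours. They were taken from the 15939 genes in catalogues of transcript structure of the mouse nucleus accumbens by matching the Ensembl gene ID to the symbol, and all 7 were found. The nucleus accumbens is the part of the ventral striatum that serves reward, and the tissue came from C57BL/6N mice trained in conditioned place preference. The saline group (replicates 1, 2 and 3) received saline injections, and the morphine group (replicates 4, 5 and 6) was trained with the opioid morphine. Each group had 3 libraries of total RNA, and the design text gives 6 mice per group. How mice map to libraries, and the dose, age and times, were not given in the labels, so p-values measure the spread between libraries, which may be partly technical.

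Ptprd, Ptprf (LAR) and Ptprs form the LAR-type family of receptor tyrosine phosphatases. Their outer part carries immunoglobulin domains followed by fibronectin type III repeats, and in the cell a pair of phosphatase domains binds liprins. On axon terminals they organise the presynaptic side by binding Slitrk, Lrfn, Il1rap and Ntrk3 proteins across the cleft. Short exons in and behind the second immunoglobulin domain are known to set which of these partners bind. Ptprz1 is a chondroitin sulphate carrying receptor phosphatase of astrocytes and oligodendrocyte precursors that binds pleiotrophin, midkine and contactins. Adgrl1, Adgrl2 and Adgrl3 are the latrophilins, adhesion G protein-coupled receptors whose lectin and olfactomedin-like domains bind teneurins and Flrt proteins. A short insert between those domains is known to alter teneurin binding.

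The measure throughout was the number of distinct events listed per gene and library: first exons, last exons, skipped exons, retained introns and alternative exon ends. A listed skip was read as transcripts of that library including the exon in one form and leaving it out in another. This reading rests on the type codes, because the assembler and event caller are not named. Such a listing does not give the share of molecules of either form. Read depth is unknown, an event that is not listed was not shown to be absent, and event numbers are not expression levels. Coordinates were read as GRCm38 positions with GENCODE M21 annotation, although labels and headers do not name the build.

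Skipping of microexons, exons of 3 to 30 bases, recurred across these genes. The microexons of the second immunoglobulin domain region are shown first because their skips recurred and because related exons stood at the same place in Ptprd and Ptprf. In each line the microexon is in capitals, the flanking bases in lower case are the neighbouring exons after splicing, and the sequences were read from the GENCODE M21 transcripts. The 3 Ptprd exons lie at chr4:76139294-76139302, chr4:76138556-76138573 and chr4:76135545-76135556, and the Ptprf exon at chr4:118252076-118252093, all on the minus strand and all coding.
Ptprd 9 bases: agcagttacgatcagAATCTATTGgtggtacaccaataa
Ptprd 18 bases: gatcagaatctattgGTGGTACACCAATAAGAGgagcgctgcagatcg
Ptprd 12 bases: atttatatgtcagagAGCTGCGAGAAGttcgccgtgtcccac
Ptprf 18 bases: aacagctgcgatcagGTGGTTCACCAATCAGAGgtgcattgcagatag
The 18-base exons of Ptprd and Ptprf shared 16 of 18 bases (88.9%).

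A 27-base exon in the fibronectin repeat region was skipped in all 3 LAR-type genes. It lies at chr4:76095520-76095546 in Ptprd, at chr4:118227819-118227845 in Ptprf and at chr17:56427791-56427817 in Ptprs, on the minus strand.
Ptprd 27 bases: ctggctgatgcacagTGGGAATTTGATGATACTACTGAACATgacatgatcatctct
Ptprf 27 bases: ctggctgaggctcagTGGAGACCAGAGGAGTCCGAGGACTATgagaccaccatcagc
Ptprs 27 bases: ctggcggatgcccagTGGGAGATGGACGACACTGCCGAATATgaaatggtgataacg
Ptprd and Ptprs shared 19 of its 27 bases (70.4%), Ptprf and Ptprs 14 (51.9%) and Ptprd and Ptprf 13 (48.1%).

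The latrophilins held a 15-base exon in Adgrl1 (chr8:83926262-83926276) and Adgrl3 (chr5:81509724-81509738), both on the plus strand, and a 27-base exon in Adgrl2 (chr3:148827212-148827238, minus strand) and Adgrl3 (chr5:81757986-81758012). These are shown because they were the most alike between latrophilins.
Adgrl1 15 bases: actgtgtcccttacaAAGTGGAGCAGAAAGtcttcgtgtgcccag
Adgrl3 15 bases: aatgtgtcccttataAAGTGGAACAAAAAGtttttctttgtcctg
Adgrl2 27 bases: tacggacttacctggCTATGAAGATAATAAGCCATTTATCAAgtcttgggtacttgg
Adgrl3 27 bases: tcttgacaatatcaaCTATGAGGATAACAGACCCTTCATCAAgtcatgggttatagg
The 15-base exons shared 13 of 15 bases (86.7%) and the 27-base exons 21 of 27 (77.8%). Between a LAR-type gene and a latrophilin, the 27-base exons shared 22.2% to 37% of bases. The 15-base exon of Ptprd shared 60% of bases with that of Adgrl1 and 53.3% with that of Adgrl3, more than the 27-base exon shared between Ptprf and the other LAR-type genes. The flanks differed from this. In the 15 bases upstream, the 27-base exon matched at 13 for Ptprd and Ptprf and at 12 for Ptprf and Ptprs. The Ptprd 15-base exon matched there at 4 with Adgrl1 and at 3 with Adgrl3. Downstream the matches were 8 and 6 for the 27-base pairs, and 2 and 1 for the 15-base pairs.

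Single skipped exons of the 7 genes were more often very short, and also more often over 300 bases long, than those of all genes. The genes held 42 distinct single skipped exons, of which 17 (40.5%) were microexons, beside 541 of 9056 (5.97%) over all genes. Their median length was 39 bases, beside 103 over all genes. Of the 42, 8 (19%) were over 300 bases, beside 8.27% over all genes. Among these 8, the 2071-base Adgrl1, 600-base Adgrl2 and 4977-base Adgrl3 exons are unannotated and were each in 1 library. The 2071-base and 4977-base stretches were also listed as exons that keep an intron. The 863-base Adgrl2 exon is unannotated too, and the 801-base Adgrl3 exon was in 1 library. The 306-base and 579-base Ptprf exons were in all 6 libraries. Of the 42 exons, 35 (83.3%) were a multiple of 3 bases long, beside 51.3% over all genes. Of the 42, 31 are annotated as coding, and 29 of the 31 were multiples of 3, the lengths that leave the reading frame unchanged. All 17 microexons were multiples of 3, beside 81.7% of the microexons of all genes. Skips of 8 of the 17 microexons (47.1%) were listed in all 6 libraries, beside 34.4% of microexons over all genes. These shares are descriptions without a test, and several exons come from the same gene.

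**Figure D1:**
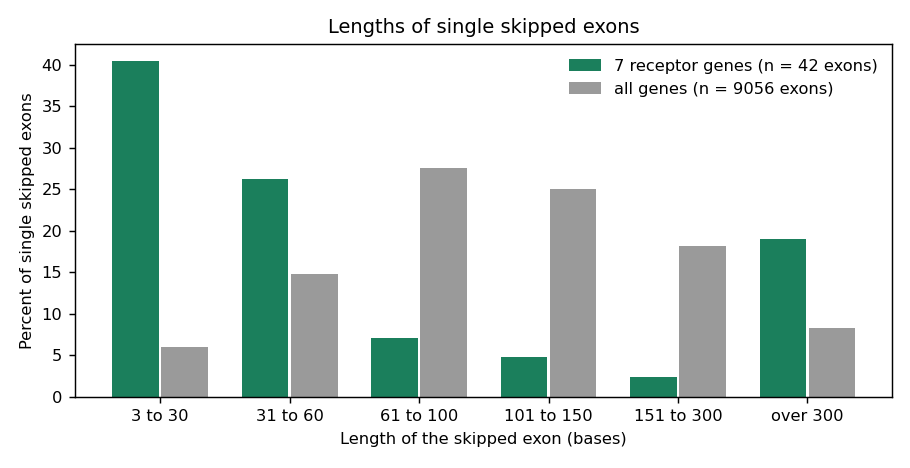
Percent of single skipped exons (vertical axis) in 6 length ranges in bases (horizontal axis), for the 7 receptor genes (green, 42 exons) and all genes (grey, 9056 exons). Exons of 3 to 30 bases made up 40.5% in the receptor genes and 5.97% in all genes, while the commonest range over all genes was 61 to 100 bases (27.6%). Exons over 300 bases made up 19% and 8.27%.

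The families differed in this respect. The LAR-type genes listed 15 single skipped exons, 9 of them microexons, and all 15 were multiples of 3. The latrophilins listed 25, with 7 microexons and 18 multiples of 3. Ptprz1 listed 2, with 1 microexon. Ptprd held 5 skipped microexons, and no other gene in the catalogues held 5 or more. At least 4 were found in 6 genes, at least 3 in 19 genes, Adgrl3 with its 3 among them, and at least 1 in 452 genes.

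**Figure D2:**
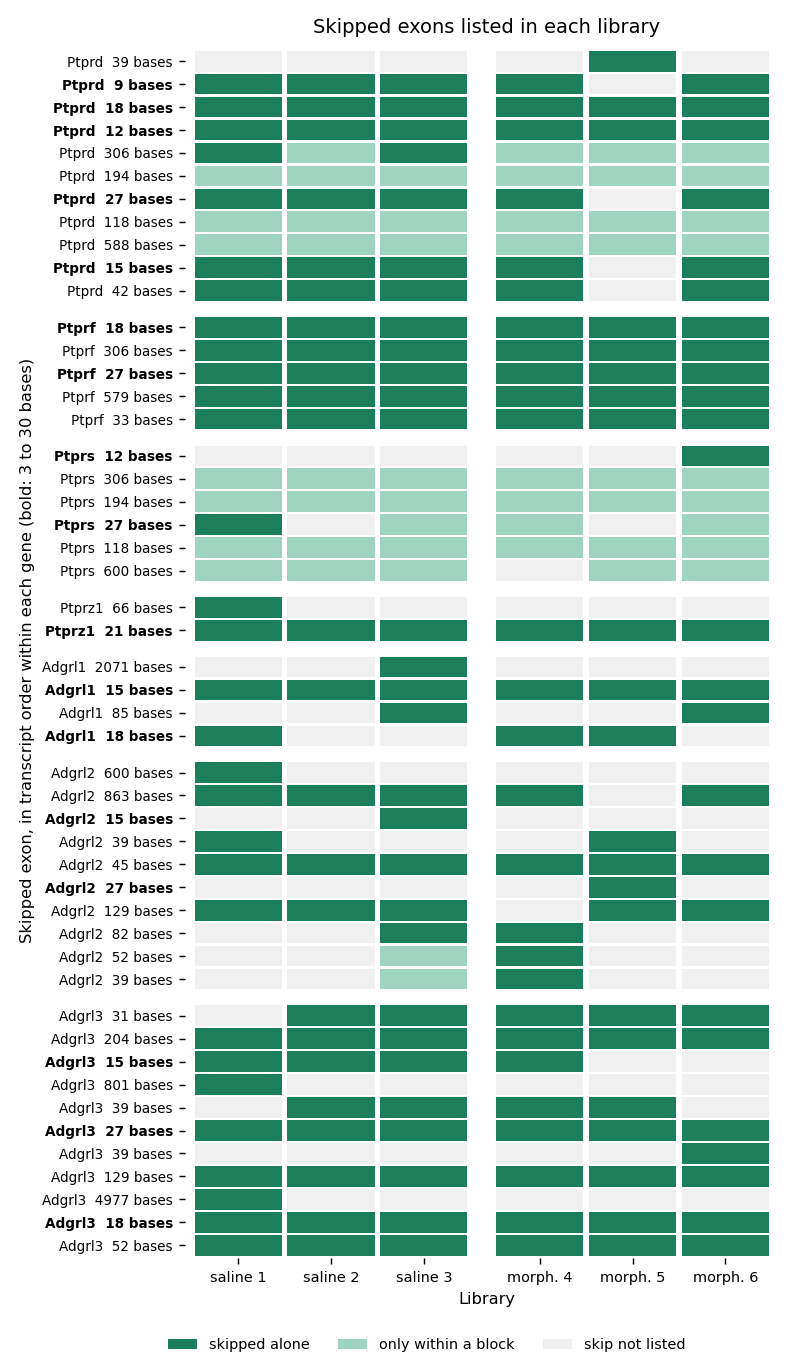
Each row is an exon of the 7 genes whose skip was listed, in transcript order within each gene, and each column is a library. Dark green marks an exon skipped alone, light green one skipped only within a block of exons, and grey a skip that was not listed. The 5 Ptprf exons are dark in all 6 columns, while the column of morphine replicate 5 is grey at 4 of the Ptprd exons that the other 5 libraries listed.

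Ptprd (chr4:75941238-78211961, minus strand, 35 coding exons in its longest coding transcript) had the most events. Saline replicates 1, 2 and 3 listed 29, 22 and 28 events and morphine replicates 4, 5 and 6 listed 24, 17 and 19. Saline replicate 2 lay below morphine replicate 4, so the groups overlapped. The means were 26.3 ± 3.79 in saline and 20 ± 3.61 for morphine (SD, n = 3 each; exact two-sided permutation p = 0.2, where 0.1 is the smallest p that 3 against 3 can give). The log2 ratio of morphine to saline was -0.39 ± 0.179 (SE; limma, adjusted p = 0.905 over 15040 genes). The groups no longer overlapped without saline replicate 2 (log2 ratio -0.51) or without morphine replicate 4 (-0.53). With 1 library left out, 6.51% to 7.4% of all genes did not overlap.

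In Ptprd the means were furthest apart for exon skipping. Saline libraries listed 14, 11 and 18 skips and morphine libraries 11, 4 and 11 (14.3 ± 3.51 and 8.67 ± 4.04). In saline replicate 3, blocks of 1233, 1206 and 927 bases were each listed under more than 1 type code. That library also listed the most skips over all genes, 6674 beside 5912 to 6060 in the other libraries. Without the type codes that begin with X, the log2 ratio over all Ptprd events was -0.30. Saline replicate 2 tied with morphine replicates 4 and 6 at 11, and morphine replicate 5 stood lowest at 4. The exact permutation p was 0.3. First exons went the other way in the means, with 8, 7 and 6 for saline against 9, 9 and 7 for morphine (exact permutation p = 0.3).

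The skips of the 18-base and 12-base exons in the immunoglobulin region of Ptprd were listed in all 6 libraries. The 18-base exon begins at base 551 of the 5736-base coding sequence and the 12-base exon at base 680. The skip of the 9-base exon, at base 542 and so directly before the 18-base exon, was listed in 5 libraries and not in morphine replicate 5. The joint skip of the 9-base and 18-base exons, 27 bases in all, was listed in the same 5 libraries. A 15-base exon (chr4:76054589-76054603) and a 42-base exon (chr4:76039880-76039921), which lie 3′ of the fibronectin repeat region, also had skips in those 5 libraries. The same 5 libraries listed the skip of the 27-base fibronectin region exon. Apart from morphine replicate 5, the saline and morphine libraries listed these skips alike.

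The fibronectin repeat region was skipped in a block. In Ptprd the exons of 306, 194, 118 and 588 bases, 1206 bases in all, were left out together in all 6 libraries. The form that also left out the 27-base exon, 1233 bases in all, was listed in 5 libraries and not in morphine replicate 5. Neither the 194-base nor the 118-base exon is a multiple of 3, but both totals are. Saline replicates 1 and 3, and no other library, listed the 306-base exon skipped alone and a 927-base block of 4 exons that kept it.

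In Ptprs the same order of exons was found, with 306, 194, 118 and 600 bases. The 1218-base block of these 4 exons was listed in replicates 1, 2 and 5. The 1245-base block with the 27-base exon was listed in replicates 3 and 6. A 645-base block without the 600-base exon was listed in replicates 1 and 4. Each library thus listed at least 1 block of this region, and the saline and morphine groups each held all 3 kinds. In Ptprf the 306-base, 27-base and 579-base exons were skipped singly in all 6 libraries, and no block was listed.

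**Figure D3:**
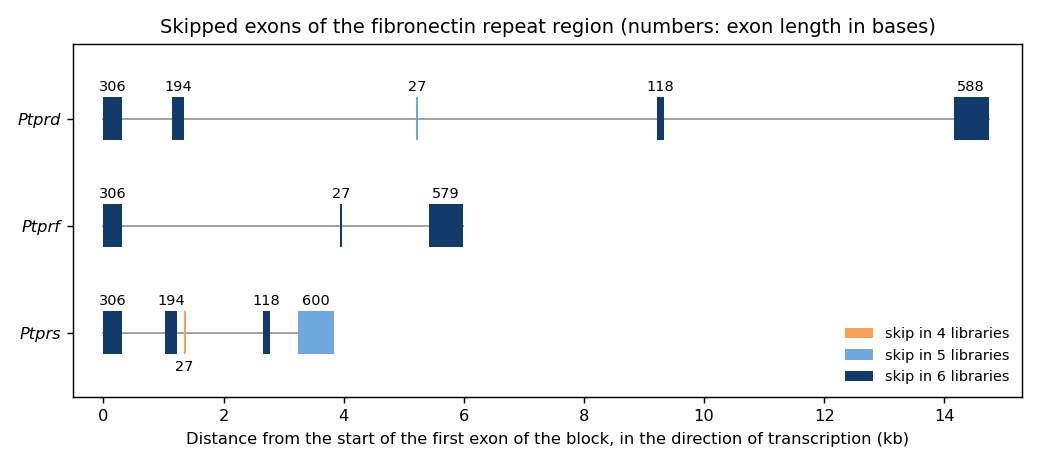
Exons of the fibronectin repeat region of Ptprd, Ptprf and Ptprs with a listed skip, drawn to scale as distance in kb from the start of the 306-base exon. Those of Ptprf and Ptprs were chosen for a length close to that of an exon of the largest Ptprd block, so their like lengths follow from that choice. Numbers give exon length in bases, and colour gives the number of libraries that listed the skip, alone or in a block. The exons of 306, 194, 27, 118 and about 600 bases follow in the same order in Ptprd and Ptprs, and 3 of them have a counterpart of like length in Ptprf.

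Ptprf (chr4:118208213-118291405, minus strand) was the steadiest member. It had 8, 7 and 9 events for saline and 7, 8 and 7 for morphine (8 ± 1 and 7.33 ± 0.577, SD, n = 3 each; exact permutation p = 0.7). The skipping events numbered 5 in every library and were the same 5 exons, of 18, 306, 27, 579 and 33 bases. Of its 11 distinct events 7 (63.6%) were in all 6 libraries, beside 20.9% of the events of all genes. The other 4 were each in 1 library.

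Ptprs (chr17:56412426-56476483, minus strand) had the fewest events, 7, 4 and 3 in saline and 5, 4 and 4 for morphine (4.67 ± 2.08 and 4.33 ± 0.577, SD, n = 3 each; exact permutation p = 1). Its 27-base exon was skipped alone in saline replicate 1, and inside a block in replicates 1, 3, 4 and 6. A skipped 12-base exon at chr17:56445899-56445910 was listed in morphine replicate 6 and is not an exon in the annotation. Both Ptprs first exons begin in a promoter window of RefSeq (250 bases before to 50 after a gene start on GRCm38.p6). The upstream one, with its splice site at 56476340, was in all 6 libraries, and the downstream one, at 56462104, was in saline replicates 1 and 2 and morphine replicate 5.

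Ptprz1 (chr6:22875502-23052916, plus strand) had 10, 10 and 8 events for saline and 11, 9 and 11 for morphine (9.33 ± 1.15 and 10.3 ± 1.15, SD, n = 3 each; exact permutation p = 0.5). Morphine replicate 5 lay below 2 of the saline libraries. Without it the groups did not overlap (log2 ratio 0.23), as for 6.82% of all genes with that library left out. Ptprz1 is known for a long and a short receptor form and for a secreted form, phosphacan, which ends before the membrane. A large exon was listed with both of its annotated ends in all 6 libraries, 1000 bases (chr6:22999200-23000199) and 3547 bases (chr6:22999200-23002746). Both forms begin at the same base, and the shorter leaves out the later part of the longer. An exon that ran on from it through the next intron (chr6:22999200-23007418, 8219 bases) was also listed in all 6 and is not annotated. The next intron again was kept in an exon of 8957 bases in replicates 1, 2, 4 and 6. A single last exon was listed, in all 6 libraries, with its splice site at 23051972 in the annotated end of the receptor form. A last exon before the transmembrane part was not listed in any library, although the unannotated exons above run on past annotated splice sites there. The 21-base microexon at chr6:23024714-23024734 (base 5158 of 6936 coding bases) was skipped in all 6 libraries.

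Adgrl1 (chr8:83900105-83941954, plus strand) had 6, 4 and 10 events for saline and 6, 6 and 6 for morphine (6.67 ± 3.06 and 6 ± 0, SD, n = 3 each; exact permutation p = 1). The saline libraries lay on both sides of the morphine value. The skip of the 15-base insert, at base 395 of 4548 coding bases, was listed in all 6 libraries. An 18-base exon at chr8:83937916-83937933 was skipped in replicates 1, 4 and 5. A 361-base exon that keeps a 135-base intron (chr8:83937197-83937557, annotated) was in all 6.

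Adgrl3 (chr5:81020138-81825133, plus strand) had 22, 20 and 17 events for saline and 20, 15 and 17 for morphine (19.7 ± 2.52 and 17.3 ± 2.52, SD, n = 3 each; exact permutation p = 0.5). With annotated events alone the numbers were 17, 20 and 17 against 16, 15 and 16, and the groups did not overlap, as for 2.31% of all genes under that rule. The skip of the 15-base insert, at base 584 of 4740 coding bases, was listed in all 3 saline libraries and in morphine replicate 4. A skip of the 52-base exon (chr5:81792361-81792412) between the splice sites 81787564 and 81794264 was listed in the same 4 libraries. Over all pairs of neighbouring splice sites, a skip of that exon was listed in all 6. Skips of the 27-base, 129-base (chr5:81787436-81787564) and 204-base (chr5:81329757-81329960) exons were also in all 6.

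Near the 3′ end, Adgrl3 used 2 ends of the same exon in all 6 libraries, one of 18 bases and one of 52. They begin at the same base, as the printed forms show, and the 18 bases are the start of the longer exon. The longer form is not a multiple of 3, and both lie where the cytoplasmic tail is encoded.
Adgrl3 18 bases: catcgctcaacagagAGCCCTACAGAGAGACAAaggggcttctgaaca
Adgrl3 52 bases: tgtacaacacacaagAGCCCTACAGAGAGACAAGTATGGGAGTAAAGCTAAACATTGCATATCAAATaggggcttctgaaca
The upstream bases differ because the transcripts that hold these exons join them to different exons.

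Adgrl2 (chr3:148815583-148990555, minus strand) was the most variable member, with 23, 10 and 23 events for saline and 15, 23 and 11 for morphine (18.7 ± 7.51 and 16.3 ± 6.11, SD, n = 3 each; exact permutation p = 1). Both groups covered nearly the same range. Of its 54 distinct events 34 were in 1 library and 4 (7.41%) were in all 6. The events in all 6 were 3 first exons and the skip of a 45-base exon (chr3:148827541-148827585). A 129-base exon (chr3:148821280-148821408), the same length as the Adgrl3 exon above, was skipped in 5 libraries and not in morphine replicate 4. The 27-base exon that Adgrl3 skipped in all 6 libraries was skipped in morphine replicate 5 alone in Adgrl2. An unannotated 15-base exon (chr3:148860427-148860441) was skipped in saline replicate 3.

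**Figure D4:**
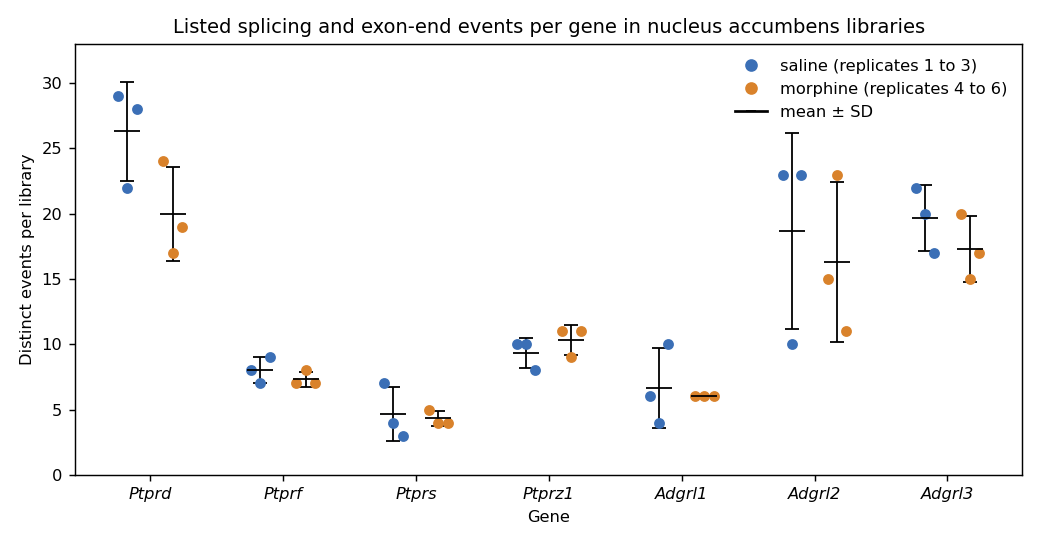
Distinct events per library (vertical axis, linear from 0) for each of the 7 genes, with saline libraries in blue, morphine libraries in orange, and black bars for the mean ± SD of 3 libraries. The groups overlap or touch in each gene, and Adgrl2 has the widest spread, from 10 to 23 in saline.

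The comparison of morphine with saline asks which transcript structures of these receptors differ after morphine conditioning. None of the 7 genes had groups that did not overlap, beside 3.07% of 15040 tested genes (1.64% with morphine above and 1.43% with saline above). Limma called none of the 7 (adjusted p under 0.05), beside 0.638% of all genes, and none had an unadjusted limma p under 0.05, beside 3.19% of all genes. The median log2 ratio over the 7 genes was -0.11, beside 0 over all genes. The ratio was negative in 6 of the 7 genes, beside 35.4% of all genes, while a further 31.5% of all genes had a ratio of 0. After Ptprd, the ratios were -0.18 in Adgrl3, -0.16 in Adgrl2, -0.11 in Ptprf, -0.05 in Adgrl1, -0.03 in Ptprs and 0.14 in Ptprz1. The exact permutation p-values of the 7 genes lay between 0.2 and 1.

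By class of event, none of 29 member and class pairs tested had groups that did not overlap, beside 1.71% of such pairs over all genes. None of the 181 distinct events was listed in every library of 1 group and in none of the other, beside 0.665% of 128790 events. The events nearest to this were few. Without saline replicate 2 there were 3, the lone skip of the 306-base Ptprd exon, the 927-base Ptprd block and an Adgrl2 first exon with its splice site at 148988336. Without morphine replicate 4 there were 2, the Adgrl3 skips of the 15-base and the 52-base exons. Without morphine replicate 6 there was 1, an Adgrl2 first exon with its splice site at 148860427. The share of all events that stood apart with 1 library left out was not computed. Over all genes, the non-overlapping share was 6.51% to 7.4% with 1 library left out, beside 3.07% with all 6. A pair of libraries shared 50% of the 7 genes' events within a group and 53% between groups, beside 47.7% and 47.5% for all events.

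The genes differed from the rest of the catalogue in how many events they had and of which kind. The median gene had a mean of 2.67 events per library. Ptprd had 23.2, above 99.7% of tested genes, Adgrl3 18.5 (99.2%), Adgrl2 17.5 (99.1%), Ptprz1 9.83 (95%), Ptprf 7.67 (91.2%), Adgrl1 6.33 (87.2%) and Ptprs 4.5 (76.2%). The ranges over libraries overlapped for each pair of neighbours in this order. The 7 genes span 41.9 kb (Adgrl1) to 2271 kb (Ptprd), and their longest coding transcripts have 22 to 35 coding exons. Event numbers were not adjusted for gene length or exon number. Exon skipping made up 42.1% of the events of the 7 genes and 10.7% of those of all genes. Last exons made up 9.14% against 29.6%, and first exons 26.7% against 38.3%. Skipping was the most frequent class in Ptprf (65.2%), Adgrl3 (55%), Ptprd (49.6%), Adgrl1 (31.6%) and Adgrl2 (31.4%). In Ptprs it tied with first exons at 33.3%, and in Ptprz1 it was 11.9%, below retention and alternative ends at 30.5% each. All Ptprz1 alternative ends were of the exon that begins at chr6:22999200. That exon with its retained intron also made up most of the retention listings, and both kinds were listed under more than 1 type code.

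**Figure D5:**
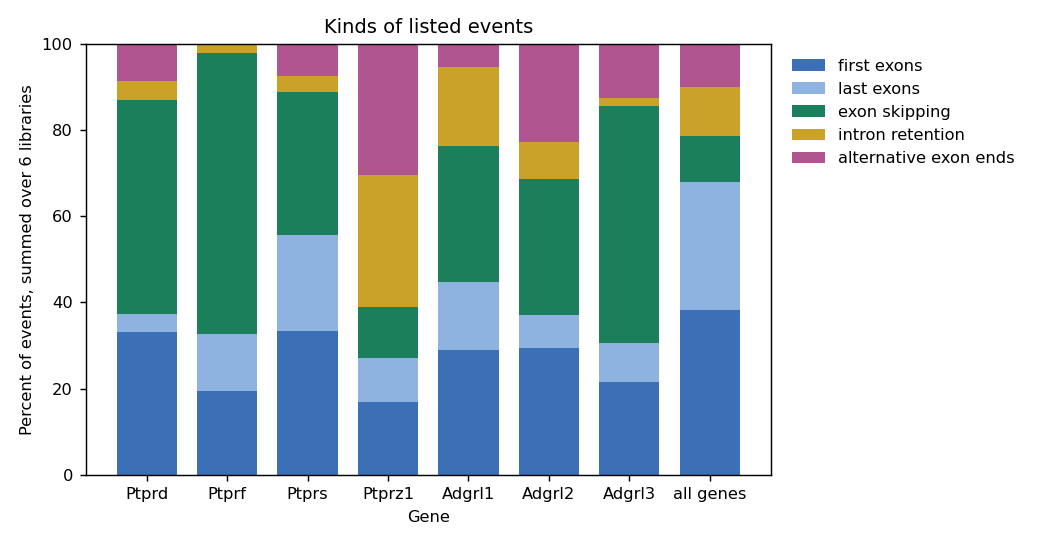
Percent of events in 5 classes, summed over the 6 libraries, for each gene and for all genes. Exon skipping (green) reaches 65.2% in Ptprf and 10.7% in all genes. Ptprz1 has 30.5% retained introns and 30.5% alternative exon ends, mostly from 1 exon listed under more than 1 type code.

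Forms that begin inside the gene were next examined. Of 45 first exons 21 had their splice site past that of the first annotated coding exon. Of the 21, 20 have coding bases annotated before their exon, and 1, an Adgrl3 first exon with its splice site at 81329960 in saline replicate 2, has none. Of the 21, 5 were in at least 3 libraries. The other 16 were each in 1 or 2 libraries. In Ptprd such a first exon with its splice site at 76086012, in the last exon of the fibronectin block, was in 5 libraries and not in saline replicate 3. It has 2467 coding bases (43% of the coding sequence) before its exon. Further internal Ptprd first exons had splice sites at 76133063 (5 libraries), 76133685 (4 libraries) and 76138556 (3 libraries, reaching into the intron before the 18-base microexon). In Adgrl1 a first exon at chr8:83924151-83924355, before the 15-base insert, was in 5 libraries and not in saline replicate 2. None of the 5 was confined to a group.

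First exons before the start codon were listed at several places in the largest genes. Ptprd listed 3 of them in all 6 libraries, with splice sites at 76325180, 76344166 and 76449643, and its most distant one, at 78211590, in 5. Adgrl2 listed 3 in all 6, at 148988590, 148989883 and 149445102. Only the first of these has an annotated splice site, and the last lies upstream of the annotated gene. Adgrl3 listed none in all 6, and its most frequent first exons, at 81021345 and 81310079, were each in 5.

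Forms that end early were rare. Of 17 last exons 7 were internal, and each of the 7 was in 1 library. A further 2 of the 17, at 81153899 and 81153905 in morphine replicate 4, lie on the strand opposite to Adgrl3 and are counted in its 20 events there. Ptprd, Ptprf, Ptprz1 and Adgrl1 each listed their annotated last exon in all 6 libraries. The annotated Ptprs last exon was in 5 and was replaced in saline replicate 3 by an internal one at chr17:56422129-56422286. The Adgrl3 last exon at 81824916 was in replicates 2, 3, 5 and 6 and the one at 81794264 in replicates 3 and 4, so saline replicate 1 listed neither. The 2 last exons of Adgrl3 in saline replicate 1, at 81205421 and 81282760, have 0 coding bases before them. The Adgrl2 last exon at 148817928 was in replicates 2, 3, 4 and 6.

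Ligands, partners and related genes were described from 7 lists with 90 genes, of which 89 were tested. Limma called 0 of the 89, and 4 (4.49%) had groups that did not overlap, 2 in each direction, beside 3.07% of all tested genes. Among 19 postsynaptic and other ligands of the LAR-type receptors, 1 gene did not overlap. It was Lrrc4b, which encodes the postsynaptic ligand NGL-3, with 4, 5 and 4 events for saline and 3, 3 and 3 for morphine (log2 ratio -0.46, limma adjusted p = 0.512). None of 7 latrophilin ligands (teneurins and Flrt genes) and none of 8 Ptprz1 ligands and partners stood apart. Among 15 intracellular partners Shank2, a postsynaptic scaffold that latrophilins bind, had 6, 10 and 8 events for saline and 15, 12 and 14 for morphine (log2 ratio 0.76). Of 15 tested receptor phosphatase genes outside the 7, none stood apart. Of 16 other adhesion receptors Adgra2, a receptor of brain vessels, had 3, 2 and 3 events for saline and 8, 4 and 4 for morphine (log2 ratio 0.83), and Adgrg1 had 7, 9 and 6 against 5, 5 and 5 (-0.49).

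The 9 splicing regulators of neuronal microexons on the list all overlapped between groups, with a median log2 ratio of -0.16, beside 0 over all genes. Srrm4, the neuronal activator of microexon inclusion, had 3, 2 and 2 events in the saline libraries against 2 in each of the morphine ones. Nova2 had 2, 4 and 5 in the saline libraries against 2 in each of the morphine ones. Rbfox1 went the other way in the means, with 10, 10 and 11 against 20, 13 and 10, and Srrm3 had 2, 4 and 9 against 5, 5 and 6. These are numbers of listed events and say nothing of the level of either protein.

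Genes with the most similar event numbers were sought by the sum of absolute differences over 30 values (5 classes in 6 libraries) among 12937 genes listed in every library. For Ptprd this was Ank2, the neuronal ankyrin B gene, with a sum of 43. For Adgrl2 it was Tanc2, a postsynaptic scaffold gene (37), for Ptprf Rhot1, a mitochondrial transport gene (5), and for Ptprs Entpd5 (5). For Adgrl3, Ank2 was the first of 4 tied genes (35), for Ptprz1 Mynn the first of 3 (19), and for Adgrl1 Aktip the first of 2 (11). The sums are small for genes with few events, so they compare within and not between members.

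Each library listed 54641 to 58007 distinct events in total. Retained introns over all genes varied more, with 7425, 5074 and 5010 in saline replicates 1, 2 and 3. Morphine replicates 4, 5 and 6 listed 7523, 6361 and 7018. The 12 striatal medium spiny neuron markers were listed in all 6 libraries, with sums of 55 to 58 events for saline and 56 to 60 in morphine. The sums for oligodendrocyte precursors, cells that carry Ptprz1, were 16 to 19 and 15 to 20, and those for astrocytes 18 and 17 to 18. Markers of ependyma and choroid plexus had sums of 22 to 29 in saline and 16 to 19 in morphine. Of these 6 markers Ccdc39 and Tmem72 had every saline library above, beside 1.43% of all genes, and the other 4 did not differ in this way. Foxj1, Dnah11 and Ttr had 2 events in all 6 libraries and Kcnj13 had 2 or 3. Ccdc39 had 12, 19 and 14 events against 8, 9 and 11. Tmem72 counts were 2, 2 and 2 for saline against 0, 0 and 0 for morphine (exact permutation p = 0.1). The limma adjusted p for Tmem72 was 6.05e-06, but its counts had an SD of 0 in both groups, so that p overstates the evidence. With so few events and an unknown read depth, the zeros do not show that Tmem72 transcripts were absent. Of the striatal markers Rgs9 had every morphine library above, with 4 events in each saline library against 5, 6 and 6. The part of the ependyma and choroid plexus marker difference in the receptor values was not tested. Event numbers measure neither cell number nor RNA per cell, which cannot be told apart in bulk tissue. Morphine replicate 5, which lacked several Ptprd skips, listed 56546 events in total, within the range of the other libraries.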

How the data were processed

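RNA-seq catalogues of transcript structure from 3 saline and 3 morphine nucleus accumbens libraries were used as the authors deposited them. Each lists alternative events under 20 type codes, with gene ID, position and pattern of splice sites. Neither labels nor headers name the assembler, event caller, build or read depth. The deposited column headed fpkm holds whole numbers from -24 to 0 and was not used. The members and gene lists were chosen with earlier results of these data known.

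Rows of the 7 genes were found by Ensembl ID (15815 of 15939 IDs matched a symbol). Distinct events were counted by type, pattern and strand, without the 8 codes ending in OFF. Of all distinct events 63.6% had annotated boundaries (GENCODE M21, GRCm38), and 128 of the 181 member events (70.7%). The 15040 genes averaging 0.5 events or more were fitted with limma 3.58.1 in R 4.3.3 on log2(events + 0.5). The fit used a mean-variance trend and Benjamini-Hochberg adjustment over all of them, and was tested on simulated data. Those data were Poisson draws around each gene's mean, unlike the real genes that had the same number in every library. Single genes were compared with exact two-sided permutation tests and by whether the groups overlapped. Named were the 7 members, the non-overlapping genes of each list, the most alike gene of each member, events recurring at microexons or internal ends, and up to 2 constant events per member. Other constant events, Srrm3, Srrm4, Nova2, Rbfox1, the markers that overlapped and the events near separation were named after their values were seen. Promoter windows are from RefSeq (GRCm38.p6).

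Alternatives were 6 leave-one-out fits, pseudocounts of 0.1 and 1, other filters, other event rules, an equal total of events and other limma settings. Figures used Python 3.11.15 and matplotlib 3.10.9.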

Additional observations from a re-analysis of the deposited data

How the results depend on the processing

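The main limits are 3 libraries per group, an unknown read depth and event numbers that are small whole numbers, so the exact test cannot fall below p = 0.1 and an unlisted event is not an absent one. No paired analysis was possible because saline libraries are numbered 1 to 3 and morphine libraries 4 to 6, so no replicate number is shared.

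The number of members whose groups did not overlap, 0, stayed at 0 to 1 when 1 library was left out, and was 1 (Adgrl3, log2 ratio -0.19) with annotated events alone. Genes that did not overlap numbered 462 (3.07%). They numbered 961 to 1102 (6.51% to 7.4%) with 1 library left out, 256 (1.7%) for first and last exons alone, 303 (5.11%) without them, and 818 (5.44%) with an equal total of events. Member events listed in every library of 1 group and none of the other numbered 0, and 0 to 3 with 1 library left out. The share over all events was not computed with 1 library left out. Limma called 96 genes, 250 to 285 with 1 library left out and 44 with robust eBayes, and no member under any setting run.

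Of 119 member ratios recomputed, 14 had the other sign. With 1 library left out the ratio ranged from -0.27 to 0.28 in Ptprs, from -0.35 to 0.27 in Adgrl1 and from -0.54 to 0.09 in Adgrl2. For first and last exons alone it was 0.21 in Ptprd, -0.04 in Ptprz1, 0.16 in Adgrl1 and 0.19 in Adgrl3. Without first and last exons it was 0.08 in Ptprf and 0.12 in Ptprs. With annotated events alone it was 0.10 in Adgrl1. The cause was not tested.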
